A study of Rattus norvegicus with 288 samples.

Results

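Of 8 genes of iron uptake, export, storage and use, 6 could be read among the 14218 genes of these rat arrays: Tfrc and Tfr2, Hamp, Slc11a2, Slc40a1 and Alas2. Members were the genes with a probe set annotated to that single symbol, and of several such probe sets the one with the highest mean in the tissue was read, except in the test between tissues. Fth1 and Ftl1, the ferritin subunits that store iron, each had 1 probe set that lists several symbols and none of their own, so no value is given for storage. Affymetrix rat genome arrays were made of bone marrow (left femur), heart (apex with both ventricles) and liver (left lateral and median lobes) of 96 male Sprague-Dawley rats, 7 to 8 weeks of age, 1 array per tissue of each rat. Every rat had an intravenous first agent, temsirolimus at 0.3 mg/kg or its vehicle (TEM_vehicle), and then an oral second agent. The second agent was sunitinib at 5 mg/kg, sorafenib at 25 mg/kg, sterile water, which is the vehicle of sunitinib, or F68/PG/PEG400, a mixture of Pluronic F68, propylene glycol and polyethylene glycol that is the vehicle of sorafenib. Each of the 8 treatments had 4 rats at each of 1, 6 and 24 h. Levels are log2 RMA signals and changes are differences of them, and arrays have no read depth, so the number of rats limits the precision.

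Cells take up iron bound to transferrin through transferrin receptor 1 (Tfrc), and the divalent metal transporter (Slc11a2) moves it out of the endosome or, in the gut, into the cell. Ferroportin (Slc40a1) is the known exporter of iron from cells, above all from macrophages, enterocytes and hepatocytes. Hepcidin (Hamp), a peptide hormone of hepatocytes, binds ferroportin and has it degraded, and transferrin receptor 2 (Tfr2) takes part in the sensing of iron-loaded transferrin in hepatocytes and erythroid precursors. Erythroid precursors use most of the iron for heme, whose synthesis starts in these cells with the enzyme encoded by Alas2. Temsirolimus inhibits the kinase mTOR, and sunitinib and sorafenib inhibit several receptor tyrosine kinases.

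The sequences before the starts of Hamp and Tfrc are shown because these were the members that passed the test in the liver. They are the 250 bases before the RefSeq start, on the minus strand of GRCr8, at chr1:95300272-95300521 for Hamp and at chr11:81690319-81690568 for Tfrc. Capitals mark matches to 4 motifs, searched on both strands.
Hamp: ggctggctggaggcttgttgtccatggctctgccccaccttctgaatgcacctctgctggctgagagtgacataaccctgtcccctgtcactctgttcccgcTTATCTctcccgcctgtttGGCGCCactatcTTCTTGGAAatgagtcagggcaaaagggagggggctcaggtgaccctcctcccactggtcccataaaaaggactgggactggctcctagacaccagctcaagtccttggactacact
Tfrc: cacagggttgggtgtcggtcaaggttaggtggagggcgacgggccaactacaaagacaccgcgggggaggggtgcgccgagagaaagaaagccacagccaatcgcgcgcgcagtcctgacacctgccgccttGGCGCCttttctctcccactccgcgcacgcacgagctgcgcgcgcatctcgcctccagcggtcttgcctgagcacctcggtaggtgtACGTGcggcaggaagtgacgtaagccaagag
In Hamp the capitals are TTATCT, which is the reverse complement of the GATA motif AGATAA, then GGCGCC, a motif of responses to bone morphogenetic protein, and then TTCTTGGAA, which fits the STAT motif TTCNNNGAA. In Tfrc they are GGCGCC and ACGTG, the core of the hypoxia motif. No match overlapped another. Of 33469 rat promoters of the same length, AGATAA was found in 10.3%, TTCNNNGAA in 7.67%, GGCGCC in 8.69% and ACGTG in 16.6%. The motifs were chosen with the members' sequences in view, and a match of letters is a description of this window and no more. Alas2 held 1 match to AGATAA, and Tfr2, Slc40a1 and both starts of Slc11a2 held none of the 4 motifs. The RefSeq start used for Alas2 may be an internal one, which was not checked.

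The levels of the members in each tissue are given as means over 96 arrays with the range of single rats. A level is read within 1 probe set, and no level was tested between tissues, because the arrays have nearly the same distribution within a tissue and another one between tissues (array medians of 6.52 to 6.64 in bone marrow, 6.88 to 7.06 in heart and 6.82 to 6.96 in liver). Hamp had a mean log2 signal of 13.20 in liver, with single rats from 8.99 to 14.72, against 7.85 in heart and 6.19 in bone marrow. The signal of Tfr2 was 11.66 in liver, 8.92 in bone marrow and 5.32 in heart. For Tfrc the means of bone marrow, heart and liver were 13.74, 12.00 and 11.22. Alas2 had 13.62, 11.06 and 9.91. Slc40a1 had 11.84 in bone marrow, 11.67 in liver and 9.33 in heart, and Slc11a2 had 10.39, 9.39 and 9.33 in bone marrow, heart and liver. Bone marrow and the other tissues were read on different probe sets for Slc40a1 and Slc11a2. On the probe set read in heart and liver, bone marrow had a mean of 11.82 for Slc40a1 and of 9.50 for Slc11a2. The highest mean was in liver for Hamp and Tfr2 and in bone marrow for the other 4 members, also on these probe sets. Single rats of the highest and the next tissue overlapped for all members but Tfr2. For Tfrc and Alas2 the overlap came from the bone marrow array of rat 4M45 alone (11.52 and 12.30). The next bone marrow rats had 13.27 and 13.43, above the highest hearts at 12.45 and 12.50. For Slc11a2 this held only across different probe sets (8.10 in rat 4M45 and 9.99 in the next, against 9.74). On the probe set read in heart, bone marrow ran from 8.80 to 11.28 with a median of 9.48. Hearts ran there from 8.87 to 9.74, so these tissues overlapped beyond rat 4M45. For Hamp the highest heart is that of rat 6M68 (12.42), and the next heart, at 11.16, also lay within the range of the livers. The SD within treatment groups was 0.63 for Hamp in liver and 0.31 for Tfrc in liver, against 0.16 for Tfr2 and 0.15 for Alas2 in bone marrow.

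**Figure D1:**
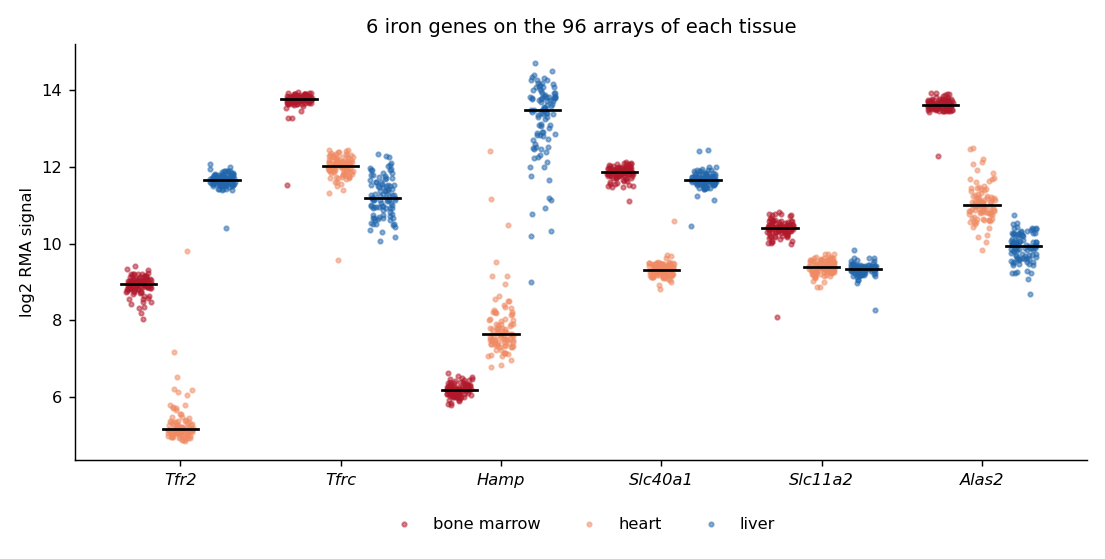
Log2 RMA signal (vertical axis) of the 6 iron genes on the 96 arrays of each tissue. Points are single rats and black bars are medians. Hamp and Tfr2 are highest in liver, and Hamp in liver spreads from 8.99 to 14.72.

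Defining markers of each tissue were present on all its arrays: 16 hepatocyte markers had mean log2 signals of 13.99 to 14.53 in liver, 12 cardiac muscle markers 13.63 to 14.27 in heart and 13 erythroid markers 10.95 to 12.08 in bone marrow. Of all arrays 3 stood apart and touch values below. The bone marrow array of rat 4M45 (temsirolimus then F68/PG/PEG400, 6 h) had an erythroid marker level of 10.95, and the other 3 rats with that treatment had 11.82 to 11.95. The liver array of rat 7M78 (TEM_vehicle then sunitinib, 24 h) had the lowest hepatocyte marker level of all livers, 13.99. The heart array of rat 6M68 (temsirolimus then sorafenib, 1 h) had a hepatocyte marker level of 13.88, against a median of 6.20 over all hearts. The fit in limma took the tissues one by one, with a mean per treatment and time and terms for the array set, which parts the first from the second pair of rats of a group. A gene counted as called at an adjusted p (Benjamini-Hochberg, 14218 genes) under 0.05. The 6 members were tested in 72 comparisons of a tissue and time, which gave 432 values, and 7 of them were called (1.62%), 2 that rose and 5 that fell. Over all genes 0.513% of the values in the same comparisons were called. Of these 5251 gene values, 1420 were from the liver 24 h after sunitinib alone, a comparison that holds the array of rat 7M78. Bone marrow had 4 of the 7 calls, liver 3 and heart 0. At 24 h there were 6, at 6 h 1 and at 1 h 0.

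Tfrc, the receptor that brings transferrin iron into cells, fell in the liver 24 h after temsirolimus alone. Its signal was 11.10 ± 0.27 (SD, n = 8) in rats given temsirolimus with either oral vehicle, against 12.07 ± 0.23 (n = 8) in rats given both vehicles. The 8 treated rats had a lowest value of 10.73, a median of 11.11 and a highest of 11.48, and the 8 control rats had 11.65, 12.07 and 12.35. All treated rats lay below all control rats. The log2 change was -0.97 ± 0.15 (SE), a level 0.51 times that of the controls (limma, adjusted p = 8.806e-06), and 25 genes had a larger absolute change. The fall was -0.91 ± 0.21 in the sterile water groups alone (adjusted p = 0.03913) and -1.03 ± 0.21 where F68/PG/PEG400 was the oral vehicle (adjusted p = 0.003737). It was -0.95 within the first array set and -0.99 within the second. The second probe set of Tfrc, which was not used to choose the value, changed by -1.53. At 1 and 6 h the liver groups of temsirolimus without an oral drug had means of 11.57 ± 0.37 and 10.72 ± 0.16 against 11.54 ± 0.20 and 10.67 ± 0.37 (SD, n = 8 each), and Tfrc was not called. In whole tissue, fewer cells of a type and less RNA per cell cannot be told apart.

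Liver Tfrc also differed with the hour at which vehicle rats were killed. In rats that had both vehicles it was 11.54 ± 0.20 at 1 h, 10.67 ± 0.37 at 6 h and 12.07 ± 0.23 at 24 h (SD, n = 8 each). The 8 rats at 6 h ran from 10.07 to 11.001, below the rats of both other times, which ran from 11.24 to 11.83 at 1 h and from 11.65 to 12.35 at 24 h. The change was -0.87 from 1 to 6 h (adjusted p = 9.765e-05), and 1.40 ± 0.15 from 6 to 24 h (adjusted p = 1.18e-10), while 0.53 from 1 to 24 h did not pass the test (adjusted p = 0.1261). By the F test over the 3 times Tfrc ranked 7 among all genes (F = 44.3, adjusted p = 4.652e-10), and the second probe set moved by 1.71 from 6 to 24 h. The share of all genes called in this F test was 4.89% in liver, 2.41% in heart and 0.281% in bone marrow. Of the members, 1 of 6 was called in liver and 0 of 6 in the other tissues, where the lowest adjusted p values were 0.8382 in bone marrow and 0.4072 in heart, both for Slc40a1. The hours lay in part on other array plates, and between rats of a single plate Tfrc changed by -0.97 from 1 to 6 h, 0.47 from 1 to 24 h and 1.49 from 6 to 24 h (4 rats against 4, other plates in each case).

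**Figure D2:**
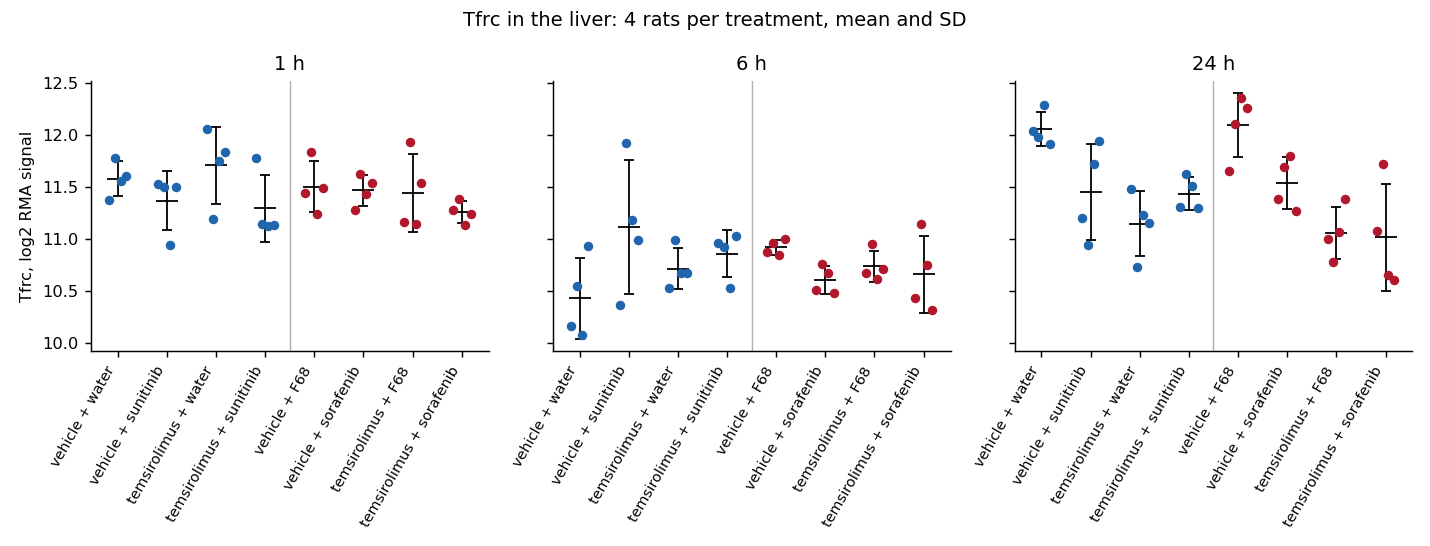
Tfrc in the liver at 1, 6 and 24 h, log2 RMA signal on the vertical axis and the 8 treatments on the horizontal axis, with 4 rats (points), the mean and the SD for each. "Vehicle" stands for TEM_vehicle and "F68" for F68/PG/PEG400, and blue marks groups with sterile water or sunitinib, red those with F68/PG/PEG400 or sorafenib. At 24 h all 8 vehicle rats lie at 11.65 or above.

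With an oral drug as well, the fall of liver Tfrc at 24 h passed the test in 1 of the 2 combinations. After temsirolimus then sorafenib the rats had 10.61, 10.66, 11.07 and 11.72, against 11.65, 12.10, 12.25 and 12.35 in the F68/PG/PEG400 controls. Of the 4 rats 3 lay below all controls and rat 6M66 lay among them. The change was -1.08 ± 0.21 (limma, adjusted p = 0.002869). It was -0.48 within the first array set and -1.67 within the second, and without rat 6M72 it was -0.92 and no longer called (adjusted p = 0.05462). After temsirolimus then sunitinib the rats ran from 11.30 to 11.62, below all 4 sterile water rats (11.91 to 12.29), and the change of -0.62 ± 0.21 was not called (adjusted p = 0.1557). After sunitinib alone the rats had 10.94, 11.20, 11.72 and 11.94, a change of -0.61 ± 0.21 (adjusted p = 0.05051). The lowest of these rats is 7M78, and without its liver array and the heart array of rat 6M68 the change was -0.45 (adjusted p = 0.9999). Sorafenib alone gave 11.26 to 11.79, a change of -0.56 ± 0.21 that was not called. Compared with sunitinib or sorafenib after TEM_vehicle, temsirolimus before the same oral drug changed Tfrc by -0.27 ± 0.15 (adjusted p = 0.2267, 8 rats against 8). The interaction of sunitinib with temsirolimus, which asks whether the combined change differs from the sum of both, was 0.89 ± 0.30 (limma, adjusted p = 0.2934). These comparisons share control rats.

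The change of Tfrc after temsirolimus at 24 h differed among the tissues. It was -0.97 in liver, -0.01 in bone marrow and 0.26 in heart (limma F test over the 3 tissues with the rat as a block, adjusted p = 1.446e-05). This test used, for every tissue, the probe set with the highest mean over all arrays, so that its changes of Slc40a1 and Slc11a2 in bone marrow are not those of the other comparisons. Liver minus heart was -1.23 ± 0.20 and liver minus bone marrow was -0.96 ± 0.20. Tfrc was the 1 member called of 6 in that test, in which 1.12% of all genes were called. In the same test of temsirolimus at 1 and 6 h, 0 of 6 members and 0% and 0.436% of all genes were called. For sunitinib 0 of 6 members were called at each time, against 0%, 0.141% and 3.57% of all genes at 1, 6 and 24 h. For sorafenib it was 0 of 6 against 0.0211%, 0.774% and 0.45%. Tfrc after sunitinib at 6 h had changes of 0.69 in liver, -0.12 in bone marrow and -0.45 in heart (adjusted p = 0.1019), and the heart value rests in part on rat 7M76, with 9.58 against 11.55, 12.03 and 12.16 in the other 3 rats. Without the heart array of rat 6M68 and the liver array of rat 7M78 the number of member calls over these tests was 4 in place of 1. Among the calls gained were Tfr2 after temsirolimus at 6 h (limma F test, adjusted p = 0.04461) and Tfrc after sunitinib at 6 h (adjusted p = 0.04816). The calls over all genes moved as well. For temsirolimus they were then 621 in place of 62 at 6 h and 389 in place of 159 at 24 h. For sunitinib they were 90 in place of 20 at 6 h and 96 in place of 507 at 24 h.

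Hamp, the hormone that closes the export of iron, was much lower in the liver at 6 h in rats whose oral dose was F68/PG/PEG400 than in rats that had sterile water. After TEM_vehicle the 4 rats with F68/PG/PEG400 had 11.14, 11.77, 12.52 and 12.69, and the 4 rats with sterile water had 13.73, 13.74, 13.85 and 14.40. The groups did not overlap, with means of 12.03 ± 0.72 and 13.93 ± 0.32 (SD, n = 4 each). The change was -1.90 ± 0.43, a level 0.268 times that with sterile water (limma, adjusted p = 0.03451). Hamp was 1 of 6 members called in the oral vehicle comparison of the liver at 6 h, where 0.106% of all genes were called, and it was the 1 gene that fell among the 15 called, with 14 that rose. It was -2.21 within the first array set and -1.59 within the second. Leaving out any 1 of 6 rats ended the call (1M3, 1M4, 1M9, 2M15, 2M21 and 2M22). Over all 96 rats left out in turn the change ran from -2.18 to -1.64. Without rat 2M15 it was -1.64 (limma, adjusted p = 0.3874).

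The rats given temsirolimus first, which share no array with that comparison, gave a second reading of the same oral vehicles. With F68/PG/PEG400 they had 10.33, 12.80, 12.90 and 13.31, and with sterile water 13.84, 13.92, 14.07 and 14.33. These groups did not overlap either, and the change of -1.70 ± 0.43 was not called on its own (adjusted p = 0.3129). The mean over both first agents, a comparison added after the data were seen, was -1.80 ± 0.30 (adjusted p = 0.0001796). In the oral vehicle comparison 0 members were called elsewhere: 0% of all genes were called in bone marrow and in heart at each time and in liver at 1 and 24 h. At an unadjusted p under 0.05 there were 3 of 54 member values, all in liver. Over all 14218 genes there were 110 to 1325 per tissue and time.

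The oral drugs were given in these vehicles, and at 6 h the sorafenib groups also had low liver Hamp values. After sorafenib the rats had 8.99, 10.93, 11.18 and 12.27, and after temsirolimus then sorafenib 10.19, 10.77, 12.14 and 12.38. The rats ran from 13.11 to 14.14 after sunitinib, and had 13.11, 13.77, 13.80 and 13.83 after temsirolimus then sunitinib. Set side by side without a test, the 16 rats with sterile water or sunitinib had a lowest value of 13.11, a median of 13.81 and a highest of 14.40, and the 16 rats with F68/PG/PEG400 or sorafenib had 8.99, 11.96 and 13.31. Of the latter 16 rats 15 lay below all of the former. At 1 h the same sets ran from 11.99 to 13.77 and from 11.66 to 13.81, and at 24 h from 11.99 to 14.72 and from 13.49 to 14.50. The ranges overlapped at both times, and the value of 11.99 at 24 h is that of rat 7M78, with 12.88 as the next. Compared with F68/PG/PEG400, sorafenib alone changed Hamp by -1.19 ± 0.43 at 6 h (limma, adjusted p = 0.4309), and over both first agents by -1.07 ± 0.30 (adjusted p = 0.08064). Neither passed the test. The hours alone gave 12.89 ± 0.79, 12.98 ± 1.14 and 13.83 ± 0.24 at 1, 6 and 24 h in the 8 vehicle rats of each time, and the F test was not called (adjusted p = 0.07107).

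**Figure D3:**
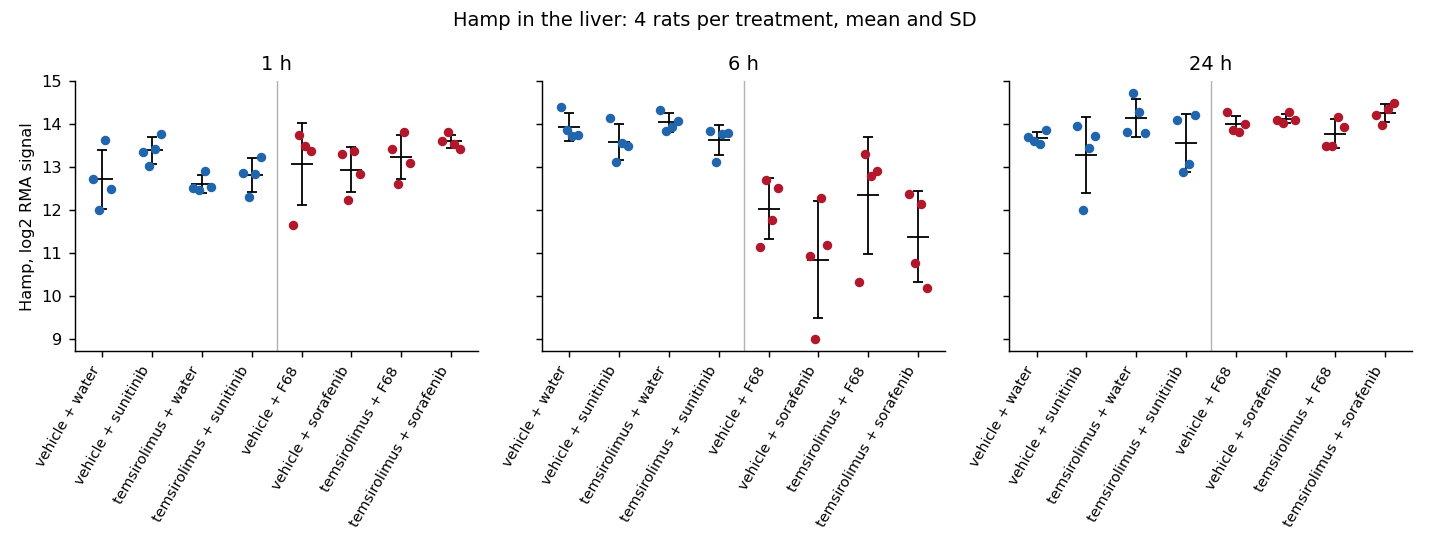
Hamp in the liver at 1, 6 and 24 h, log2 RMA signal on the vertical axis and the 8 treatments on the horizontal axis, with 4 rats (points), the mean and the SD for each. "Vehicle" stands for TEM_vehicle and "F68" for F68/PG/PEG400, and blue marks groups with sterile water or sunitinib, red those with F68/PG/PEG400 or sorafenib. At 6 h the red groups run from 8.99 to 13.31 and the blue groups from 13.11 to 14.40.

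The lists around Hamp were counted gene by gene in the liver at 6 h between the oral vehicles, and no list was tested as a whole. Of all genes 0.106% were called there, so a count of 0 in a short list is near that share. Of 17 genes of iron regulation, which hold the bone morphogenetic proteins, their receptors and Smads, 0 were called and the median change was -0.04, and of 14 acute phase genes 0 were called with a median of -0.10, against 0.004 over all genes. Hepatocyte markers had a level of 14.36 ± 0.02 with F68/PG/PEG400 and 14.35 ± 0.03 with sterile water (SD, n = 4 each). Of 10 macrophage markers 0 were called with a median of -0.39, and their level was 9.98 ± 0.12 against 10.33 ± 0.43. Their part in the Hamp difference was not tested. Compared with F68/PG/PEG400, Bmp2, a ligand that raises hepcidin, fell in the liver at 6 h after sorafenib alone (-0.60 ± 0.11, adjusted p = 0.00199) and after temsirolimus then sorafenib (-0.59 ± 0.11, adjusted p = 0.005675). It was the 1 gene of iron regulation called in either comparison, where 0.225% and 0.0492% of all genes were called. Both comparisons use the same control rats.

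Tfr2, the sensor of loaded transferrin, fell in the bone marrow 24 h after sorafenib. After sorafenib alone the rats had 8.05, 8.20, 8.32 and 8.49, and after F68/PG/PEG400 8.85, 9.002, 9.01 and 9.07. The groups did not overlap, with means of 8.26 ± 0.19 and 8.98 ± 0.09 (SD, n = 4 each). The change was -0.72 ± 0.10, a level 0.607 times that of the controls (limma, adjusted p = 2.451e-06), and 26 genes had a larger absolute change. After temsirolimus then sorafenib the rats had 8.36, 8.44, 8.48 and 8.72, again below all controls, with a change of -0.48 ± 0.10 (adjusted p = 0.002438). Both calls held with any 1 rat left out, with changes of -0.79 to -0.66 and of -0.56 to -0.43. Within the first array set the changes were -0.91 and -0.61, and within the second -0.53 and -0.35. In the second set the rats of sorafenib alone lay on another array plate than their controls. Drug and plate cannot be told apart in that value.

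Against other control rats, those given temsirolimus then F68/PG/PEG400, the same rats of temsirolimus then sorafenib also had less Tfr2. These controls ran from 8.81 to 9.31, and the change was -0.57 ± 0.10 (adjusted p = 5.214e-04). Over both first agents it was -0.65 ± 0.07 (adjusted p = 2.415e-09). After sunitinib alone the rats had 8.57, 8.63, 8.77 and 8.82 against 8.81, 9.01, 9.07 and 9.09 after sterile water, which overlap, and the change of -0.30 ± 0.10 was not called (limma, adjusted p = 0.7086). The mean over both first agents, added after the data were seen, was -0.34 ± 0.07 and was called (adjusted p = 0.0247). Doses and vehicles of the 2 oral drugs differ, so they are set side by side and not compared. At 1 and 6 h Tfr2 was not called in bone marrow in any comparison. In the liver, where it had its highest signal, Tfr2 was not called at any time.

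Alas2, the first enzyme of heme synthesis in erythroid cells, rose in the same bone marrow by a small amount. After sorafenib alone the rats had 13.74, 13.85, 13.90 and 13.92, and after F68/PG/PEG400 13.47, 13.49, 13.49 and 13.55. The groups did not overlap, and the change was 0.35 ± 0.11, a level 1.28 times that of the controls (limma, adjusted p = 0.04464). After temsirolimus then sorafenib the rats had 13.73, 13.88, 13.91 and 13.92, a change of 0.36 ± 0.11 from the same controls (adjusted p = 0.04182). The changes were 0.27 and 0.28 within the first array set and 0.43 and 0.43 within the second. Here too the second-set rats of sorafenib alone and their controls lay on different array plates. Both calls were lost without the array-set terms (adjusted p = 0.06624 and 0.06048) and when any 1 of 7 rats was left out, among them each of the 4 shared control rats, and both stood at adjusted p = 1.215e-05 and 1.941e-05 without the array of rat 4M45, which widens the spread of Alas2 at 6 h. Among rats that had temsirolimus, sorafenib changed Alas2 by 0.17 ± 0.11 (adjusted p = 0.6636), and those controls ran from 13.60 to 13.76.

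**Figure D4:**
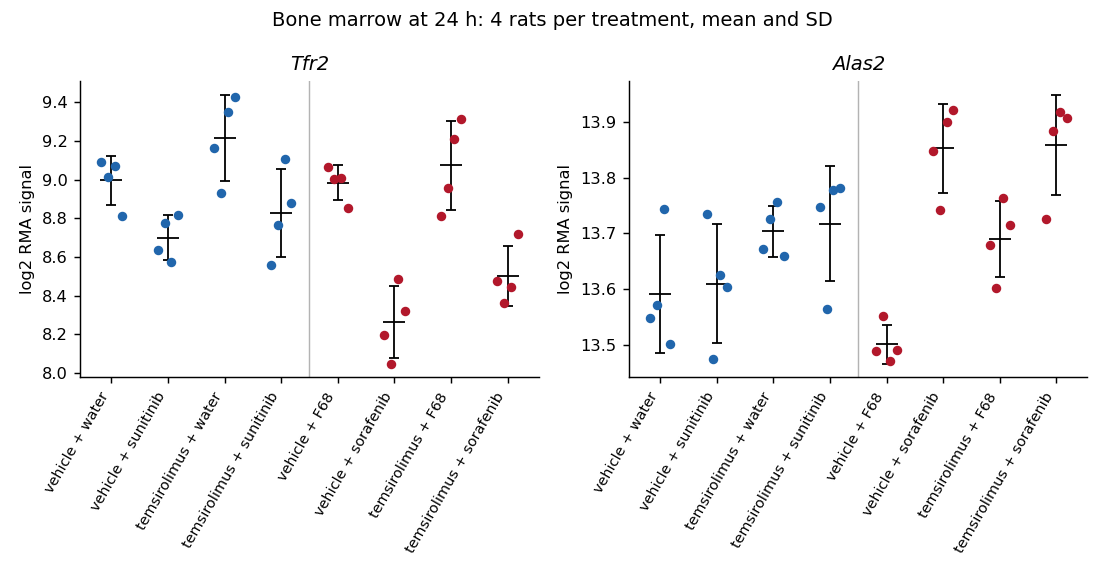
Tfr2 and Alas2 in the bone marrow at 24 h, log2 RMA signal on the vertical axis and the 8 treatments on the horizontal axis, with 4 rats (points), the mean and the SD for each. "Vehicle" stands for TEM_vehicle and "F68" for F68/PG/PEG400, and red marks groups with F68/PG/PEG400 or sorafenib. Both sorafenib groups lie at 8.72 or below for Tfr2 and at 13.73 or above for Alas2.

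Of 6 members, 2 were called in bone marrow at 24 h after sorafenib alone, where 3.7% of all genes were called, and the same number after temsirolimus then sorafenib, where it was 3.46%. Other genes of the iron and heme pathways gave few calls there. Of the 9 other genes of heme synthesis, 1 rose and 0 fell, and this was Fech, which puts iron into heme (0.24 after sorafenib alone, adjusted p = 0.04066, and 0.28 after temsirolimus then sorafenib, adjusted p = 0.01602). The median over these 9 genes was 0.08 and 0.15, against 0.001 and -0.02 over all genes. Of 12 genes of iron-sulfur cluster assembly, 1 fell in both, the ferredoxin Fdx1 (-0.37, adjusted p = 0.007322, and -0.36, adjusted p = 0.01113), and Isca1 rose after the combination (0.32, adjusted p = 0.02173). Of 17 genes of iron regulation and 24 of iron and heme transport 0 were called. The 13 erythroid markers had a level of 11.94 ± 0.14 after sorafenib alone and 11.89 ± 0.04 in its controls (SD, n = 4 each), with 0 called and a median change of 0.04. After the combination it was 12.00 ± 0.04, and 1 of the 13, the blood group antigen Kel, rose (0.31). Of 10 macrophage markers 1 rose after the combination, Adgre1 (0.49). Of 17 proliferation genes 0 were called in either.

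The calls at the other times and in the other drug comparisons are given against the share of all genes called. After sorafenib alone 0 of 6 members were called in bone marrow at 1 and 6 h (0% and 0.0211% of all genes), in liver at 1, 6 and 24 h (0%, 0.225% and 0.0563%) and in heart (1.81%, 2.98% and 0.352%). After temsirolimus then sorafenib 0 were called in bone marrow at 1 and 6 h (0% and 0.00703%), in liver at 1 and 6 h (0% and 0.0492%) and in heart (0.148%, 0.844% and 0.668%), and 1 of 6 in liver at 24 h, the fall of Tfrc, against 0.535% of all genes. After temsirolimus alone 0 were called in heart (0.0141%, 0.183% and 0.317%), in bone marrow (0%, 0% and 0.352%) and in liver at 1 and 6 h (0% and 0%), and 1 of 6 in liver at 24 h, again Tfrc, against 3.09%. After sunitinib alone 0 of 54 member values were called, against 0%, 0% and 0.00703% of all genes called in bone marrow, 0%, 2.45% and 3.58% in heart and 0%, 0.12% and 9.99% in liver. An unadjusted p under 0.05 was held by 8 of the 54, and by 309 to 5387 of 14218 genes per tissue and time. After temsirolimus then sunitinib 0 of 54 were called, against 0%, 0.253% and 0.00703% in bone marrow, 0.00703%, 0.309% and 0.141% in heart and 0%, 0.0703% and 1.06% in liver. An unadjusted p under 0.05 was held by 6 of the 54, and by 277 to 1833 of 14218 genes per tissue and time. The interactions of either oral drug with temsirolimus gave 0 calls among 108 member values, and 0% to 0.00703% of all genes were called. At an unadjusted p under 0.05 there were 8 of the 108, and 235 to 2887 of 14218 genes per interaction, tissue and time. All these counts are from limma.

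The pathway around Tfrc in the liver at 24 h after temsirolimus alone gave single calls, where 3.09% of all genes were called. Of 17 genes of iron regulation, Hfe, the partner of transferrin receptors in the sensing of iron, fell (-0.52 ± 0.12, adjusted p = 0.007609) and the receptor Acvr1 rose (0.36 ± 0.10, adjusted p = 0.02802). Of 24 genes of iron and heme transport and 9 of heme synthesis 0 were called, with medians of 0.02 and -0.08 against 0.01 over all genes. Of 12 genes of iron-sulfur cluster assembly 1 fell, the chaperone Hspa9 (-0.28, adjusted p = 0.04183). Of 17 proliferation genes 7 fell, with a median of -0.71. Tfrc is a receptor that dividing cells are known to carry in number. Across the 96 livers its r with the proliferation level was 0.33, and -0.08 with treatment and time means removed. Among rats with sterile water the proliferation level was 7.14 ± 0.43 after temsirolimus and 7.80 ± 0.37 in the controls, and among those with F68/PG/PEG400 it was 7.63 ± 0.34 and 8.37 ± 0.79 (SD, n = 4 each). The hepatocyte markers had 14.37 ± 0.04 against 14.42 ± 0.03 with sterile water, and 14.30 ± 0.06 against 14.40 ± 0.02 with F68/PG/PEG400. The part of either in the Tfrc difference was not tested. Over all 96 livers the genes whose signal was most like Tfrc were Fkbp4 (r = 0.75), Farsb (r = 0.74) and the metal transporter Slc39a10 (r = 0.73), and with treatment and time means removed r was 0.48, 0.28 and 0.25. After temsirolimus then sunitinib the heme exporter Abcg2 (-1.22 ± 0.26, adjusted p = 0.003954) and Cpox of heme synthesis (-0.59 ± 0.13, adjusted p = 0.009803) fell.

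The transporters Slc40a1 and Slc11a2 were not called in any comparison in any tissue. Changes of Slc40a1 over the drug and vehicle comparisons ran from -0.20 to 0.25 in bone marrow, from -0.20 to 0.33 in heart and from -0.34 to 0.11 in liver. The highest of these, 0.33 in heart 1 h after temsirolimus then sorafenib, rests on rat 6M68, with 10.60 against 9.20 to 9.37 in the other 3 rats, and without that rat the difference of the means was -0.0045. For Slc11a2 the changes ran from -0.31 to 0.14 in bone marrow, from -0.17 to 0.30 in heart and from -0.27 to 0.12 in liver. Its lowest in liver, 24 h after sunitinib alone, rests on rat 7M78, with 8.29 against 9.39 to 9.50, and without that rat the difference was 0.03. The signal of Slc40a1 in liver went with the macrophage markers (r = 0.80 over 96 arrays, 0.72 without rat 7M78), and its nearest genes there were Ctss, a protease of macrophages (r = 0.82), and the complement chains C1qa (r = 0.79) and C1qc (r = 0.78). Arrays of a tissue share their plates and treatments, so these correlations describe the 96 arrays and carry no p.

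In bone marrow at 6 h the members with erythroid use hung on 1 array. In the group of temsirolimus then F68/PG/PEG400, rat 4M45 had Tfrc at 11.52, against 13.77 to 13.82 in the other 3 rats and 13.72 to 13.86 in the 4 rats of TEM_vehicle then F68/PG/PEG400. Its Slc11a2 was 8.10, against 9.99 to 10.52 and 10.26 to 10.61, and its Alas2 was 12.30, against 13.47 to 13.60 and 13.51 to 13.65. With rat 4M45 the group differed from its control by -0.58, -0.66 and -0.38 for Tfrc, Slc11a2 and Alas2, and without it by -0.01, -0.10 and -0.07. The correlations of bone marrow rest on the same array in large part. Tfrc had r = 0.84 with the erythroid markers over 96 arrays and 0.44 without rat 4M45, Slc11a2 had 0.83 and 0.52, and Alas2 had 0.77 and 0.40. For Tfr2 these were lower, 0.26 and 0.25, and r was 0.46 over the 96 arrays with treatment and time means removed. The genes most like Tfrc in bone marrow, Racgap1 (r = 0.93), Tubb5 (r = 0.92) and Ap2m1 (r = 0.92), had 0.54, 0.52 and 0.56 without that array. Those most like Alas2, Adipor1 (r = 0.92), Mkrn1 (r = 0.92) and Ybx3 (r = 0.91), kept 0.81, 0.82 and 0.82, and Tgfbi kept r = 0.84 with Tfr2.

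Macrophage markers fell in heart at 24 h, 6 of 10 after sorafenib alone (median -0.88) and 7 of 10 after temsirolimus then sorafenib (median -1.03), where 0.352% and 0.668% of all genes were called, with medians of 0.0095 and 0.0001. Slc40a1, which macrophages carry, changed there by -0.0039 ± 0.12 and 0.12 ± 0.12 and was not called (adjusted p = 1 and 0.925). Over the 96 hearts the r of Slc40a1 with the macrophage markers was 0.16, and -0.09 without rat 6M68. With treatment and time means removed it was 0.46 over the 96 hearts.

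In heart, Hamp and Tfr2 went with hepatocyte transcripts. The level of 16 hepatocyte markers, which ran from 5.82 to 13.88 over the 96 hearts, had r = 0.81 with Hamp and 0.80 with Tfr2, and without rat 6M68 r was 0.77 and 0.84. Rat 6M68 had the highest Hamp (12.42) and the highest Tfr2 (9.81) of all hearts. A hepatocyte level above 9, a limit set after the data were seen, was found in 14 hearts, and all 14 were from rats given temsirolimus, 12 of them of the first array set. In these 14 Hamp had a median of 8.60 and Tfr2 of 5.93, against 7.58 and 5.14 in the other 82. Tfr2 after temsirolimus then sorafenib at 1 h was 9.81 in rat 6M68 and 5.19, 5.22 and 5.28 in the other 3, a change of 1.26 ± 0.38 that was not called (adjusted p = 0.07723), and 0.13 without that heart array and the liver array of rat 7M78. Hamp 6 h after temsirolimus alone changed by 0.71 ± 0.37 (adjusted p = 0.354), and by -0.30 ± 0.23 with the hepatocyte level as a covariate (adjusted p = 0.5507). The nearest genes to Tfr2 in heart were F12, Khk and Ugt2b1 (r = 0.96 each), and to Hamp they were Ang, Apoc4 and Krt18 (r = 0.91, 0.91 and 0.90).

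**Figure D5:**
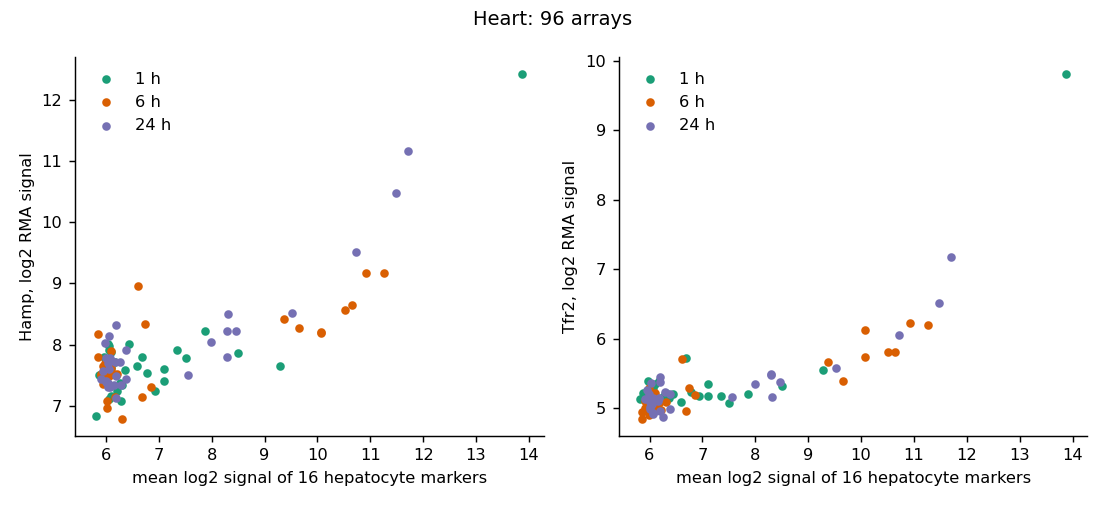
Hamp and Tfr2 in the 96 hearts (vertical axes, log2 RMA signal) against the mean log2 signal of 16 hepatocyte markers on the same array (horizontal axes), coloured by the hour. The farthest point on the right is rat 6M68, with a hepatocyte level of 13.88.

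Alas2 in heart went with erythroid markers. It had r = 0.89 with their level over 96 hearts and was nearest to Bpgm, an enzyme of red cells (r = 0.93), Ybx3 (r = 0.91) and the globin Hbb (r = 0.90). In liver Ybx3 (r = 0.89) and Hbb (r = 0.83) were again the nearest. Heart Alas2 ran from 9.83 to 12.50 over single rats and was not called in any comparison. Heart Tfrc ran from 9.58 to 12.45, and the gene nearest to it was Alas1, which makes the first enzyme of heme synthesis outside erythroid cells (r = 0.74). Over the 5 drug comparisons in heart 0 of 90 member values were called, and 9 had an unadjusted p under 0.05. Such a p was held by 416 to 2992 of 14218 genes per comparison and time. Of 17 genes of iron regulation in heart, 1 rose and 0 fell 6 h after sorafenib alone and after temsirolimus then sorafenib, where 2.98% and 0.844% of all genes were called. It was Id1 in both, a target of bone morphogenetic protein signals (0.67 ± 0.13, adjusted p = 9.141e-04, and 0.64 ± 0.13, adjusted p = 0.002872). At 1 h after sorafenib alone and 24 h after sunitinib alone 1 of the 17 fell and 0 rose, where 1.81% and 3.58% of all genes were called. They were Ireb2, which governs the stability of Tfrc RNA (-0.73 ± 0.21, adjusted p = 0.04783), and Smad4 (-0.20 ± 0.06, adjusted p = 0.04907).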

How the data were processed

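The data were Affymetrix rat genome arrays of 3 tissues of 96 rats. The deposited values are log2 signals per probe set, made by the authors with RMA from oligo-d(T) primed RNA; its version is not given in the sources used here. They were used as deposited. Probe sets were named from the platform annotation: of 31099, 20832 had 1 symbol, 436 had several and 9831 were not listed. Promoters are from RefSeq, GRCr8.

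Samples were grouped by their labels, and rats are separate animals. R 4.3.3 with limma 3.58.1 fitted 24 group means and 3 array-set terms per tissue. The paper states that the rats of a group were dosed in pairs on 2 days, and the sources do not give the dosing day of a rat. The array set was taken from the array plate names. Whether its pairs are those of the dosing days is not stated. In some groups of TEM_vehicle then sorafenib a pair lay on 2 plates, so the array-set terms do not follow the plate in full. Temsirolimus alone was compared over both oral vehicles (8 rats against 8), other agents with 4 against 4 and their own vehicle. Tissues of a rat share that animal: residuals of 2 tissues of a rat had median correlations of 0.0954 to 0.13, and the rat was kept as a block (consensus correlation 0.0302). Tables and figures used Python 3.11.15, pandas 2.3.3, numpy 2.4.6 and matplotlib 3.10.9. The method was tested on simulated data.

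The members, the 12 gene lists and the tests were chosen with earlier results of these data known. Named were all members, and of each list in each comparison at most 4 called genes with the largest changes. Alternatives were no array-set terms, renewed quantile normalization, a mean log2 signal of at least 6, the mean of all probe sets, omission of arrays or of each rat, covariates for hepatocyte markers and for 8 bone marrow arrays with an N2 mark, and single oral vehicles. Rats that also had the other agent, and the mean over both first agents, were added after the data were seen.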

Additional observations from a re-analysis of the deposited data

Results flagged for a closer look

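The change of liver Tfrc 24 h after temsirolimus alone differed from that in bone marrow and heart (-0.97 against -0.01 and 0.26, adjusted p = 1.446e-05 by the F test over the tissues).

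In 40 groups of 4 rats a single rat was looked for whose gap to the next, divided by the range of the group, passed the 95% critical value of Dixon's test, which chance passes in about 1 group in 20. Of these groups 18 were added because a rat was seen to stand apart in them, so the number of passes among them is no measure. Such a rat was found in 9 groups.
In bone marrow, rat 4M45 (temsirolimus then F68/PG/PEG400, 6 h) was low for Tfrc (0.9756; 11.52 against 13.77 to 13.82), Tfr2 (0.9044; 8.59 against 8.96 in the next rat) and Alas2 (0.9009; 12.30 against 13.47 to 13.60).
In heart, rat 6M68 (temsirolimus then sorafenib, 1 h) was high for Tfr2 (0.9803; 9.81 against 5.19 to 5.28), Hamp (0.8448; 12.42 against 7.08 to 7.91) and Slc40a1 (0.8779; 10.60 against 9.20 to 9.37).
In liver, rat 7M78 (TEM_vehicle then sunitinib, 24 h) was low for Slc40a1 (0.9393; 10.45 against 11.75 to 11.83) and Slc11a2 (0.9119; 8.29 against 9.39 to 9.50).
For Hamp in liver, rat 5M52 (temsirolimus then sunitinib, 6 h) was low (0.9167; 13.11 against 13.77 to 13.83).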

How the results depend on the processing

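Of 73 values of the called members under settings other than leaving out a rat, 68 were called in the same direction, 5 were not and 0 reversed. The 5 were Alas2 without array-set terms (0.35 and 0.36) and in rats that also had temsirolimus (0.17), Tfrc 24 h after temsirolimus in rats that also had an oral drug (-0.27) and Hamp between the oral vehicles in rats that also had temsirolimus (-1.70). The causes were not tested.

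Counts of members called over all tissues and times moved as follows. Here and with single rats left out, the share of all genes called under the same setting is not set beside them. A moved count is therefore no result about the members alone. Temsirolimus alone had 1, and 2 without the bone marrow array of rat 4M45 and the liver array of rat 4M48, 4 with F68/PG/PEG400 as the one oral vehicle and 0 in rats that also had an oral drug. Sunitinib alone had 0, and 1 with the filter at a mean of 6, without the arrays of rats 4M45 and 4M48, without those of rats 6M68 and 7M78, and over both first agents. Sorafenib alone had 2, and 1 without array-set terms and 4 in rats that also had temsirolimus. The oral vehicle had 1, and 3 in rats that also had temsirolimus. The calls gained with F68/PG/PEG400 alone and in rats that also had temsirolimus were Tfrc, Slc11a2 and Alas2 in bone marrow at 6 h, where the group with rat 4M45 enters. Time in vehicle rats had 1, and 2 with renewed normalization (Hamp in liver, adjusted p = 0.03711) and without the arrays of rats 6M68 and 7M78 (0.03252). The difference between tissues had 1, and 4 without those 2 arrays; with no replicate block, the tissues of a rat taken as independent, it had 1, and the block changed no other call.

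With each rat left out in turn the counts ran from 1 to 4 for temsirolimus alone, 0 to 3 for sunitinib alone, 1 to 2 for sorafenib alone, 0 to 0 for temsirolimus then sunitinib, 1 to 6 for temsirolimus then sorafenib, 0 to 3 for the interactions, 0 to 1 for the oral vehicle and 1 to 2 for time. The gains for temsirolimus came in bone marrow at 6 h without 4M39, 4M40 or 4M46, which leaves rat 4M45 more weight, and at 24 h without 4M45; those for temsirolimus then sorafenib in heart at 1 h without 6M61, 6M62 or 6M67, which does so for rat 6M68. Of the gains for sunitinib, the highest count, 3, came without 7M77, a rat of the group of 7M78, and without 7M83 or 7M84 it was 2. The oral vehicle count was 0 without 1M3, 1M4, 1M9, 2M15, 2M21 or 2M22. Signal over background is not in the values used, so weak signals such as Hamp in bone marrow (6.19) or Tfr2 in heart (5.32) cannot be told from background.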
